A study of Homo sapiens with 2 samples.

Results

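The genes described here encode the proteins of the cytosolic ribosome, the particle that translates mRNA. They were taken by name, as rows called RPL or RPS plus digits with an optional suffix A, X, L or AL, the L also with a digit, or RPLP0, RPLP1, RPLP2 and RPSA, without RPS6K kinases, pseudogenes and Y-linked copies. The rule used no measured value and found 85 of the 60527 genes in the table, 53 of the large (60S) subunit and 32 of the small (40S) subunit. They were measured by RNA sequencing of total RNA from SK-MEL-2, a human line labelled as skin melanoma. One culture had been treated with 1.75 µM JNJ-7706621 and the other with the solvent DMSO, both for 48 h. The compound blocks cyclin-dependent kinases and Aurora kinases, which drive cell division. One library per group was used here, so no difference below has a replicate check and none was tested between groups. By their names, 2 further columns of the table hold a second library of each group. They match none of the sample records used here and were not analysed.

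The proteins coat and join the ribosomal RNAs, and most are present once in each ribosome. Their mRNAs are among the most abundant of growing cells. Most begin with a C followed by a run of pyrimidines at the first transcribed base, the terminal oligopyrimidine (TOP) motif. Through it the growth kinase mTOR and the RNA-binding protein LARP1 are known to set how much of these mRNAs is translated and kept. Several members have a further gene copy, named with an L suffix, that can stand in for the parent protein or is used in particular tissues. Unassembled large-subunit proteins, above all RPL5 and RPL11, are known to bind the ubiquitin ligase MDM2.

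The start sites of L copies and of their parent genes are shown first because 4 of the 5 members that differed most upwards are such copies. Each line gives 15 bases before and 15 bases from the RefSeq start site on GRCh38.p14, on the gene's own strand. Capitals mark a run that starts with C at the first transcribed base and goes on with at least 4 pyrimidines, as far as the window shows it.
RPL22L1, chr3:170870181-170870210, minus strand: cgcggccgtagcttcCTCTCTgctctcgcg
RPL22, chr1:6199581-6199610, minus strand: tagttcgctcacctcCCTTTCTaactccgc
RPS27L, chr15:63157463-63157492, minus strand: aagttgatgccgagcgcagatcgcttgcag
RPS27, chr1:153990747-153990776, plus strand: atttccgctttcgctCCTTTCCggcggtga
RPL26L1, chr5:172958865-172958894, plus strand: ggcggggcggcggccacaaacccgcaggca
RPL26, chr17:8383179-8383208, minus strand: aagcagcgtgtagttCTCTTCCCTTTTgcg
RPL36AL, chr14:49620612-49620641, minus strand: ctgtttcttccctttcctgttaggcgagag
RPL36A, chrX:101390996-101391025, plus strand: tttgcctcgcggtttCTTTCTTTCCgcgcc
RPL7L1, chr6:42879601-42879630, plus strand: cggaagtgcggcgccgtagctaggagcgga
RPL39, chrX:119791616-119791645, minus strand: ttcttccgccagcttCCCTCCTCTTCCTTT
The run stood at the start of RPL22L1 and of the parents RPL22, RPS27, RPL26, RPL36A and RPL39. It was not at the start of RPS27L, RPL26L1, RPL36AL or RPL7L1, nor at the other listed start of RPL26L1. RPL39L and RPL7 are not shown, nor are RPL3L and RPL10L, the copies with a mean below 1 FPKM, and their parents. The run was not at the start of RPL10L or of the parent RPL3. It stood at some but not all of the 3 listed starts of the parent RPL10. RefSeq start sites were found for 68 of the 85 genes, some with several entries. Of their 84 entries 47 (56.0%) had the run, against 4.07% of all 35116 start sites, read on the gene's own strand only. These letters describe annotated starts. Which starts the cultures used was not measured.

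Values are FPKM, fragments per kilobase of exon per 1000000 fragments, as the authors deposited them. The library totals behind them were 22817719 reads for JNJ-7706621 and 23377161 for DMSO. Intervals in parentheses are 95% counting intervals, which cover counting error only and not the spread between cultures. The label SK-MEL-2 was checked against marker genes, and these did not bear it out. Most melanocyte genes were near absent, while epithelial genes were high. Of 7 melanocyte genes, 2 (PMEL and MITF) had a mean FPKM of at least 1, and the list summed to 6.25 FPKM in JNJ-7706621 and 4.92 FPKM in DMSO. SOX10, which defines the lineage, had 0 reads in JNJ-7706621 and 1 read in DMSO, and TYR, the pigment enzyme, had none in either, for which the limit of 3 reads is 0.0436 FPKM in JNJ-7706621 and 0.0425 FPKM in DMSO. All 5 epithelial genes passed, with sums of 1979 FPKM in JNJ-7706621 and 1962 FPKM in DMSO. Of 4 fibroblast genes and 4 blood cell genes (PTPRC, CD3E, CD14 and the red cell gene HBB), 0 reached a mean FPKM of 1. The fibroblast list summed to 1.23 FPKM in JNJ-7706621 and 0.228 FPKM in DMSO, and the blood cell list to 2.02 FPKM in JNJ-7706621 and 1.00 FPKM in DMSO. The part of cell identity in the results was not tested.

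Ribosomal protein mRNAs took a somewhat smaller share of the JNJ-7706621 library than of the DMSO library. They accounted for 6.38% of its reads (1455500 reads), against 7.04% (1644802 reads) in DMSO, a ratio of 0.907 (0.905 to 0.909). Their summed level was 22033 FPKM in JNJ-7706621 and 24535 FPKM in DMSO, a ratio of 0.898. Both subunits were lower by a like amount, with summed ratios of 0.894 for the large and 0.903 for the small subunit. FPKM values are shares of a library. Fewer cells with these mRNAs, less of them per cell and more of other RNAs therefore cannot be told apart. Reads of mitochondrial genes and their nuclear copies took 11.3% of the JNJ-7706621 library and 11.2% of the DMSO library.

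Of the 85 genes, 83 had at least 1 FPKM in each library. The 2 others are copies known mainly from other tissues. RPL3L, the copy of heart and skeletal muscle, had 1 read in JNJ-7706621 and 4 reads in DMSO, a ratio of 0.256 (0.0052 to 2.59). RPL10L, the copy of the testis, was listed at 0 in both libraries, where the limit of 3 reads is 0.162 FPKM in JNJ-7706621 and 0.158 FPKM in DMSO.

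Among the 83, levels spanned about 3 orders of magnitude, with a median of 198 FPKM in JNJ-7706621 and 213 FPKM in DMSO. Mean levels of 500 FPKM or more were seen for 17 genes, 100 to 500 FPKM for 43, 10 to 100 FPKM for 19 and less than 10 FPKM for 4. The 5 most abundant were RPS12, RPL13A, RPS2, RPLP0 and RPS6, and together they made up 18.9% of the summed FPKM in JNJ-7706621 and 20.3% in DMSO. RPS12, a small-subunit protein, stood at 1012 FPKM in JNJ-7706621 and 1105 FPKM in DMSO. RPL13A, also known for silencing translation in inflammation, stood at 847 FPKM in JNJ-7706621 and 1108 FPKM in DMSO. RPS2, of the mRNA entry channel, stood at 801 FPKM in JNJ-7706621 and 963 FPKM in DMSO. All 5 were lower in JNJ-7706621, and RPL13A had the lowest ratio of JNJ-7706621 over DMSO among them, 0.764. FPKM here divides by the exon bases counted for a gene, from 639 for RPS12 to 9845 for RPS29. These lengths are the annotated ones or, for most members and for RPS12, ones inferred from whole reads. RPS29, at 14.8 FPKM in JNJ-7706621 and 21.1 FPKM in DMSO, rested on 3318 reads in JNJ-7706621 and 4861 reads in DMSO.

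**Figure D1:**
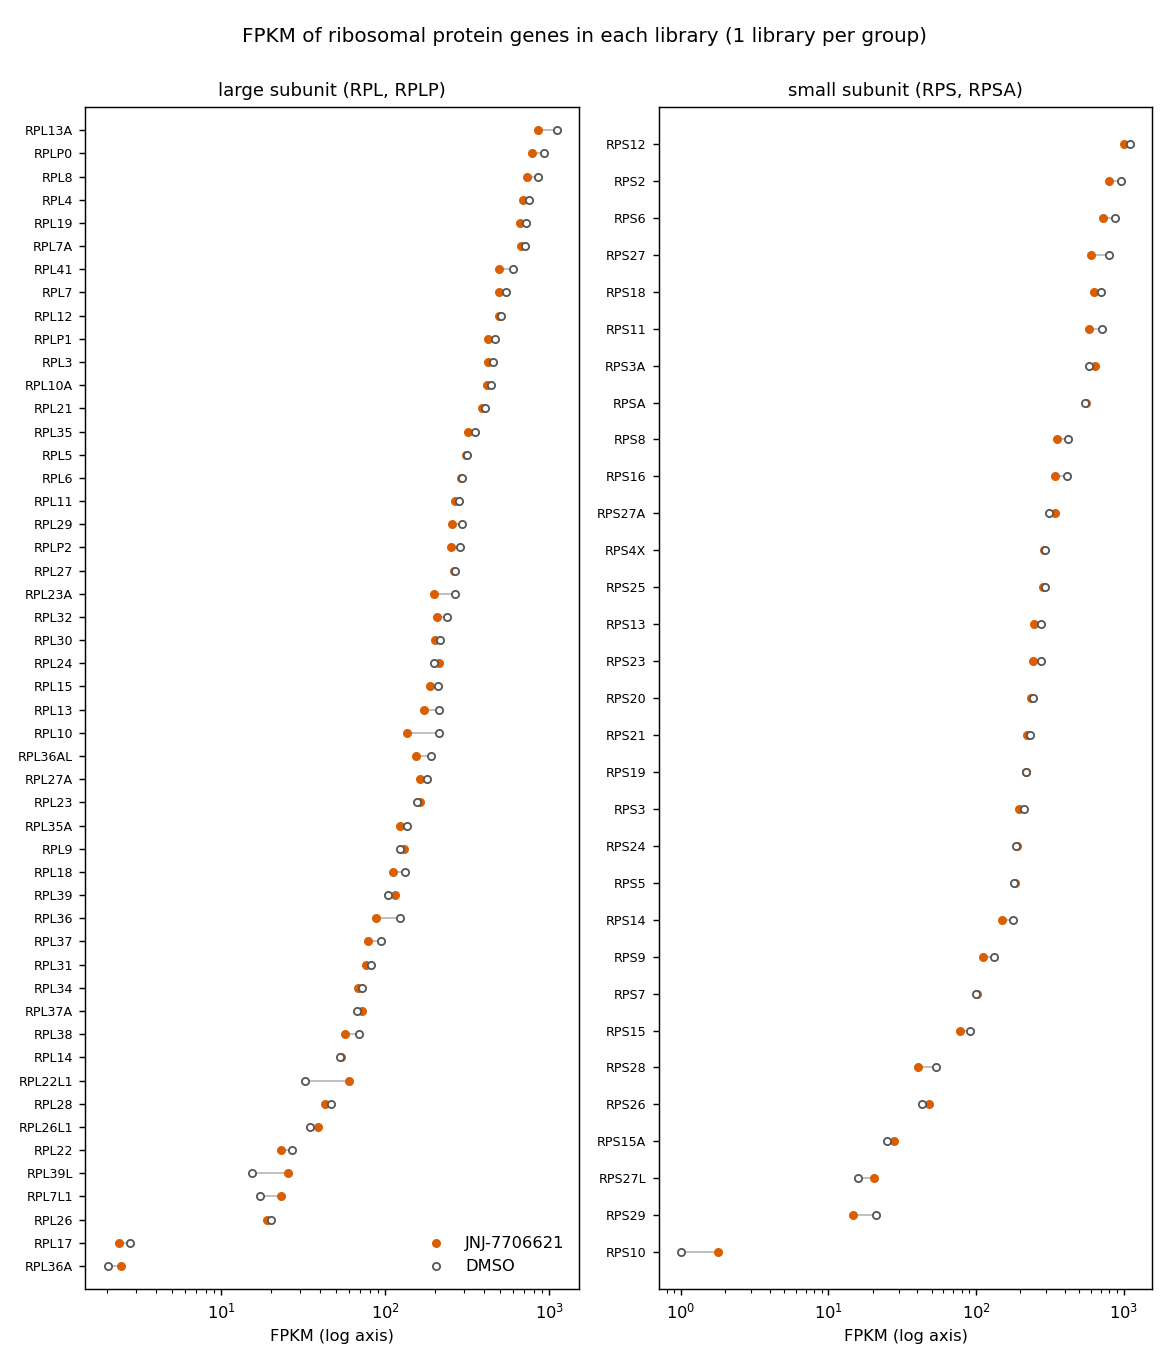
FPKM (log axis) of 81 of the 83 ribosomal protein genes with at least 1 FPKM in each library, large subunit at left and small subunit at right, filled points for JNJ-7706621 and open points for DMSO, 1 library each. Open points lie to the right of filled ones for most genes, while RPL22L1 and RPL39L show the reverse.

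Most members were slightly lower in JNJ-7706621, and none differed by 2-fold. The log2 difference, log2(FPKM + 1) in JNJ-7706621 minus the same in DMSO, had a median of -0.12 over the 83 genes, with quartiles of -0.24 and 0.02. Of them 60 lay below 0 and 23 above 0, while 50.4% of the 13241 genes of the whole table that averaged at least 1 FPKM lay below 0 and 49.6% above 0, with a median of -0.0032. No member was at least 2-fold higher or lower, against 2.39% and 1.36% of all these genes. At a smaller limit, of the same size in both directions on the log scale, 5 members (6.02%) were at least 25% higher and 8 (9.64%) at least 20% lower. Of all genes 20.1% and 19.4% passed these limits, and 70 of the members lay within them. After removal of the trend with exon length and GC content over all genes, 13 members were at least 20% lower and 5 at least 25% higher. The share of all genes past these limits after that removal is not given, so these counts cannot be set beside one.

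Counting intervals lay below a ratio of 1 for 54 members and above 1 for 19, and held 1 for 10. The same shares over all genes were 33.2% below and 32.8% above 1. Most genes at large have fewer reads and wider intervals than these members, which had 54 to 98216 reads per library. Other abundant mRNAs lay more often above 0 than below. Of 244 other protein-coding genes with a mean of at least 100 FPKM, a group chosen after the values were seen, 144 lay above 0, with a median of 0.06. Of the 60 members at that level, 11 lay above 0, with a median of -0.14.

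**Figure D2:**
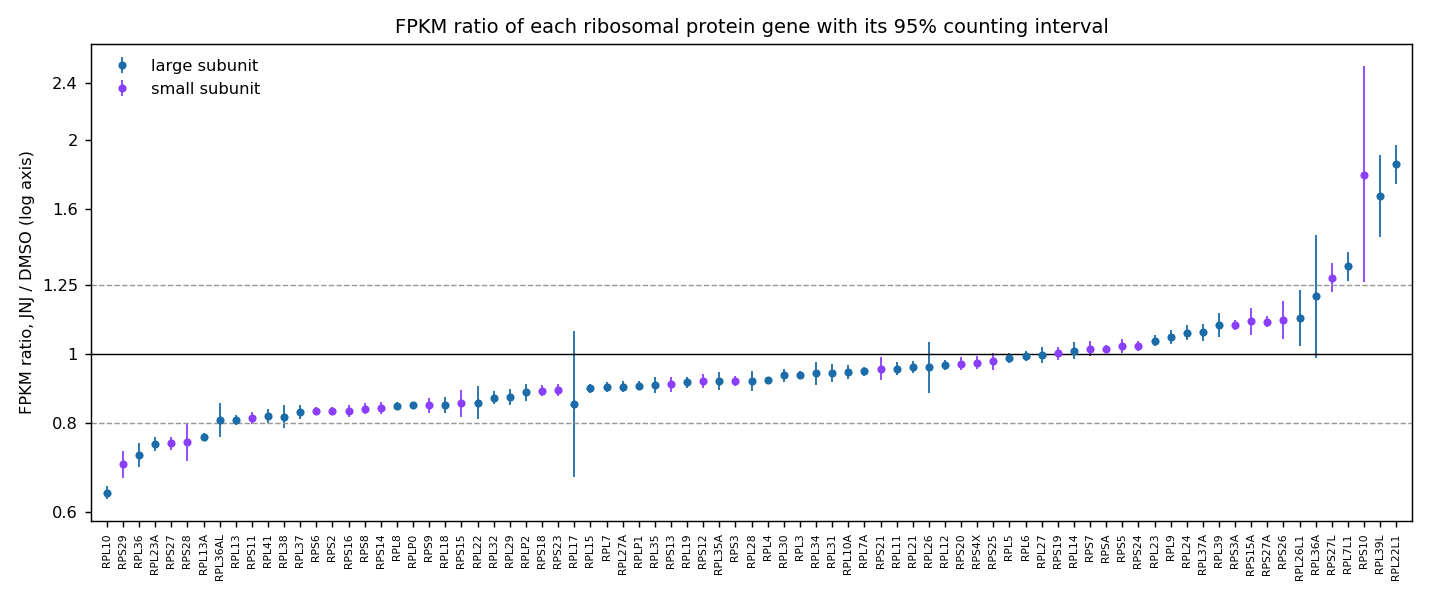
FPKM ratio of JNJ-7706621 over DMSO (log axis) for 81 of the 83 genes in order of their log2 difference, with 95% counting intervals as bars, coloured by subunit. The dashed lines mark a ratio 25% higher and 20% lower, and the points run from 0.638 for RPL10 to 1.85 for RPL22L1 with both subunits mixed along the order.

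The lowest ratios belonged to proteins from many parts of the ribosome. RPL10, which joins the large subunit late in its assembly near the catalytic centre, stood at 136 FPKM in JNJ-7706621 and 213 FPKM in DMSO, a ratio of 0.638 (0.625 to 0.652). RPS29, a zinc-binding protein of the small-subunit head, had a ratio of 0.699 (0.669 to 0.731). RPL36, of the large subunit, stood at 87.9 FPKM in JNJ-7706621 and 121.9 FPKM in DMSO, a ratio of 0.721 (0.694 to 0.749). The intervals of all 3 lay below 1.

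RPL23A, at the exit of the tunnel through which new proteins leave, stood at 198 FPKM in JNJ-7706621 and 264 FPKM in DMSO. RPS27, a zinc-binding protein of the small subunit, stood at 597 FPKM in JNJ-7706621 and 798 FPKM in DMSO, a ratio of 0.748 (0.732 to 0.765). RPS28, of the small subunit, had a ratio of 0.751 (0.708 to 0.797) and RPL13A, of the large subunit, one of 0.764 (0.755 to 0.773). RPL36AL and RPL13, at 0.807 and 0.808, were also among the 10 lowest. The 48 members that the naming rule does not single out had ratios of 0.814 to 1.11, with 37 below 0 and 11 above 0 on the log2 scale.

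Exons of several of these genes overlap exons of other genes, and how reads in shared bases were counted is not stated. By GENCODE 29, 55.5% of the exon length of RPL10 overlaps exons of other genes. One of them, the antisense gene AC245140.2, named with those below after the values were seen, stood at 50.7 FPKM in JNJ-7706621 and 81.1 FPKM in DMSO, a ratio of 0.625, close to that of RPL10. Another, DNASE1L1, over 34.2% of that length on the opposite strand, stood at 6.23 FPKM in JNJ-7706621 and 3.85 FPKM in DMSO. AC010761.1, antisense to RPL23A, had a ratio of 0.732. Without knowledge of strand in counting, reads of a gene and its antisense partner cannot be told apart.

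The highest ratios belonged mostly to L copies. RPL22L1, the copy of the RNA-binding protein RPL22, stood at 59.8 FPKM in JNJ-7706621 and 32.4 FPKM in DMSO, a ratio of 1.85 (1.73 to 1.97). RPL39L, the copy of the exit-tunnel protein RPL39 known from the testis, stood at 25.5 FPKM in JNJ-7706621 and 15.3 FPKM in DMSO, a ratio of 1.67 (1.46 to 1.90). RPL7L1, a relative of RPL7 that acts in ribosome assembly, stood at 22.9 FPKM in JNJ-7706621 and 17.3 FPKM in DMSO, a ratio of 1.33 (1.27 to 1.39). RPS27L, a copy of RPS27, stood at 20.3 FPKM in JNJ-7706621 and 15.9 FPKM in DMSO, a ratio of 1.28 (1.22 to 1.34). Of the 5 members at least 25% higher, 4 were these copies and the fifth was RPS10.

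Of the parents of these 4 copies, RPL39 was slightly higher and the other 3 were lower in JNJ-7706621. RPL22 stood at 23.0 FPKM in JNJ-7706621 and 26.9 FPKM in DMSO, so that RPL22L1 made up 72.2% of the summed FPKM of the pair in JNJ-7706621 and 54.6% in DMSO. RPL39 stood at 114 FPKM in JNJ-7706621 and 104 FPKM in DMSO, and the share of RPL39L was 18.2% in JNJ-7706621 and 12.8% in DMSO. For RPS27L, whose parent RPS27 was among the lowest ratios, the share was 3.29% in JNJ-7706621 and 1.95% in DMSO. RPL7 stood at 491 FPKM in JNJ-7706621 and 546 FPKM in DMSO, and the share of RPL7L1 was 4.46% in JNJ-7706621 and 3.07% in DMSO. All these shares depend on the exon bases counted, 2051 for RPL22L1 and 4665 for RPL22, and 8825 for RPS27L and 1028 for RPS27. In reads, RPL22L1 had 2797 in JNJ-7706621 and 1552 in DMSO. RPL22 had 2451 reads in JNJ-7706621 and 2939 in DMSO, so in DMSO the parent had more reads than the copy.

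The 2 other measured pairs showed smaller or opposite differences. RPL26L1 stood at 38.7 FPKM in JNJ-7706621 and 34.5 FPKM in DMSO, and its parent RPL26 at 19.1 FPKM in JNJ-7706621 and 19.9 FPKM in DMSO. RPL36AL was lower, unlike the other 5 copies, at 154 FPKM in JNJ-7706621 and 191 FPKM in DMSO, while RPL36A stood at 2.44 FPKM in JNJ-7706621 and 2.03 FPKM in DMSO. In this pair the L copy held nearly all of the summed FPKM, with 98.4% in JNJ-7706621 and 98.9% in DMSO. Exon bases counted were 676 for RPL36AL and 3964 for RPL36A. Of the 6 measured copies 5 lay above 0, against 18 of the 77 other members.

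Reads can be split between a copy and its parent where their sequences are alike. The coding sequences of RPL39L and RPL39 were identical at 94.9% of aligned bases, those of RPL36AL and RPL36A at 90.03% and those of RPL26L1 and RPL26 at 84.2%. RPS27L and RPS27 were identical at 78.0%, RPL22L1 and RPL22 at 66.6% and RPL7L1 and RPL7 at 55.6%. RPL22L1 and RPL22, the pair with the largest difference, were among the least alike. RPL39L, with the second highest ratio of the copies, belonged to the most alike pair. The part of split reads in these differences was not tested.

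**Figure D3:**
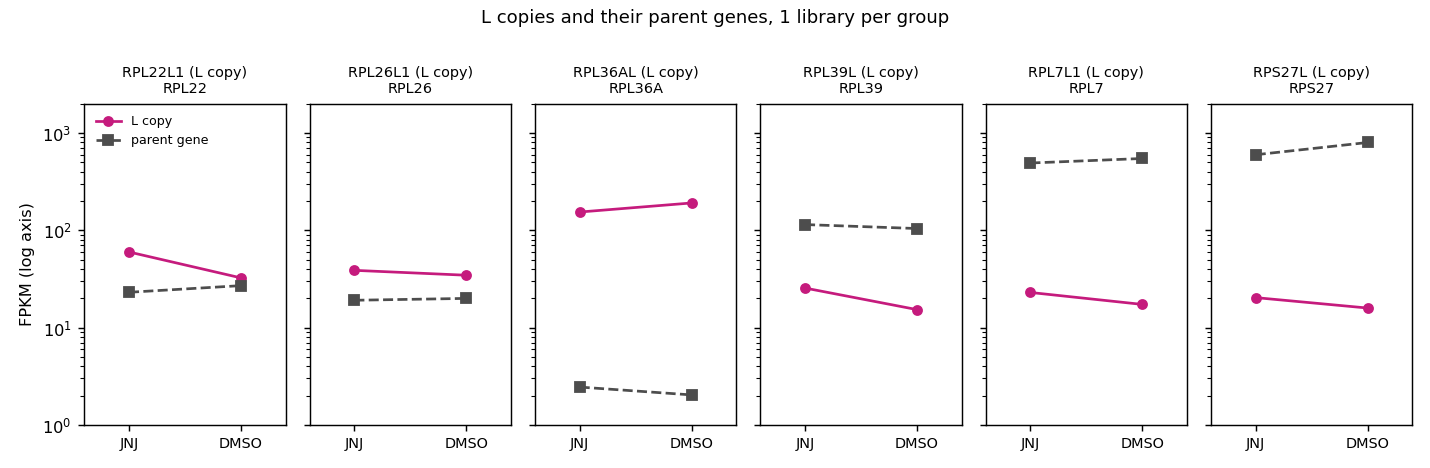
FPKM (log axis) of 6 L copies (circles, solid lines) and their parent genes (squares, dashed lines) in JNJ-7706621 and DMSO, 1 library each. RPL22L1, RPL39L, RPL7L1, RPS27L and RPL26L1 were higher in JNJ-7706621, and RPL36AL was lower.

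RPL5 and RPL11, which carry 5S rRNA into the large subunit and bind MDM2, had log2 differences of -0.02 and -0.07, which became 0.08 and -0.12 with the trend removed. RPL5 stood at 309.8 FPKM in JNJ-7706621 and 314 FPKM in DMSO, and RPL11 at 266 FPKM in JNJ-7706621 and 279 FPKM in DMSO. Around them, MDM2 was 1.68 (1.59 to 1.78) times as high in JNJ-7706621 as in DMSO, and the cyclin-dependent kinase inhibitor CDKN1A was 2.69 (2.56 to 2.82) times as high.

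The stalk of the large subunit, which recruits elongation factors, was lower in all 4 genes, by unequal amounts. RPLP0, its base, stood at 787 FPKM in JNJ-7706621 and 929 FPKM in DMSO, a ratio of 0.847. The acidic proteins RPLP2 and RPLP1 had ratios of 0.883 and 0.902, and RPL12, also at the base, one of 0.966 (0.9499 to 0.9818). The log2 difference of RPL12 was -0.05, and -0.12 with the trend removed. RPS6, the substrate of S6 kinases, stood at 725 FPKM in JNJ-7706621 and 873 FPKM in DMSO. RPL3, of the catalytic centre, had a ratio of 0.934, and its log2 difference of -0.10 was -0.16 with the trend removed. RPSA, also known as a laminin receptor, stood at 559 FPKM in JNJ-7706621 and 549 FPKM in DMSO, a log2 difference of 0.02 that was 0.0023 with the trend removed. RPS27A, made as a fusion with ubiquitin, stood at 344 FPKM in JNJ-7706621 and 310.1 FPKM in DMSO, a ratio of 1.11 (1.09 to 1.13), and RPS26, at the mRNA exit channel, had a ratio of 1.12 (1.05 to 1.19).

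A few members with low FPKM share exons with read-through genes, which join 2 neighbouring genes in 1 transcript. RPS10, of the mRNA entry side of the small subunit, stood at 1.79 FPKM in JNJ-7706621 and 1.00 FPKM in DMSO, from 94 reads in JNJ-7706621 and 54 reads in DMSO, a ratio of 1.78 (1.26 to 2.54). The read-through gene RPS10-NUDT3 overlaps 39.4% of its exon length and was listed at 0 in both libraries. RPL17, at 2.36 FPKM in JNJ-7706621 and 2.78 FPKM in DMSO, is overlapped over 24.8% by RPL17-C18orf32, and RPL36A over 8.4% by RPL36A-HNRNPH2, both listed at 0. RPS10, RPL17 and RPL36A averaged less than 10 FPKM, and their levels and ratios are uncertain.

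Pseudogenes of ribosomal protein genes, near-identical copies without a known product, carried few reads. Of 1143 such rows 97 had a mean FPKM of at least 1. All together they held 22814 reads in JNJ-7706621 and 26584 reads in DMSO, with summed levels of 1956 FPKM in JNJ-7706621 and 2124 FPKM in DMSO. Over the 97, 62 lay below 0 and 35 above, with a median log2 difference of -0.12, the same as for the genes themselves.

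Differences between members went with base composition. The correlation (Spearman) of the log2 difference with the GC content of the longest transcript was -0.41 over the 83 genes, given as a description since all points come from the same 2 libraries. The 41 members with GC content above the members' median of 47.9% had a median log2 difference of -0.18, with 5 above 0. The 42 others had a median of -0.04, with 18 above 0. Over 13059 other genes the same correlation was 0.083, and removal of the trend over all genes left that of the members at -0.48. With level, the members' correlation was -0.30, and with exon length 0.08.

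Chromosome 19 carries 12 of the members, among them RPL36, RPS28 and RPL13A, and was looked at after the values were seen. Its members had a median log2 difference of -0.25, with 2 of 12 above 0, and those on other chromosomes had -0.09, with 21 of 71 above 0. The 624 other protein-coding genes of chromosome 19 were lower too, with a median of -0.13 and 32.5% above 0. Members on chromosome 19 had a median GC content of 56.1%, against 46.6% on other chromosomes, and the part of GC content in this difference was not tested.

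**Figure D4:**
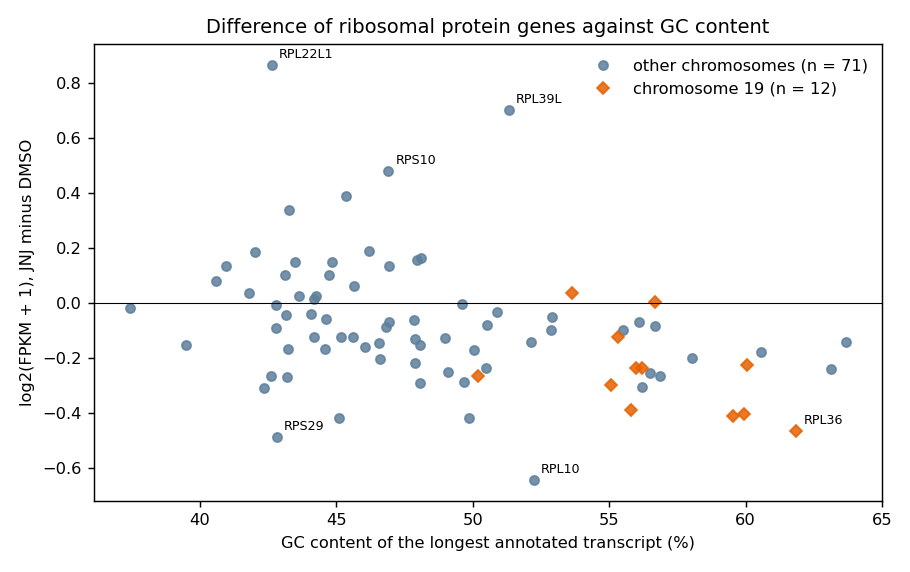
Difference in log2(FPKM + 1), JNJ-7706621 minus DMSO, of the 83 genes against the GC content of their longest annotated transcript, with members on chromosome 19 as diamonds. GC-rich members lie lower, and 10 of the 12 diamonds are below 0.

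Members were also grouped by the genes they host and by their start sites. The 28 genes with a small nucleolar RNA gene inside their bounds on the same strand had a median log2 difference of -0.13, with 4 above 0. The 55 without one had -0.09, with 19 above 0. Genes with the pyrimidine run at a RefSeq start (47) had a median of -0.13, with 12 above 0. Those with entries but no run (20) had one of -0.09, with 6 above 0. Those without an entry (16) had one of -0.13, with 5 above 0. Medians were -0.12 for the large subunit (51 genes, 11 above 0) and -0.10 for the small subunit (32 genes, 12 above 0).

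Other genes of translation did not all follow the ribosomal proteins. FAU and RACK1, proteins of the small subunit with other symbols, had log2 differences of -0.04 and -0.14. Proteins of the mitochondrial ribosome had a median of 0.01 over 74 measured genes, 40 above 0 and 34 below. None of them was 2-fold higher or lower, 6 were at least 25% higher and 4 at least 20% lower, and MRPL54 (-0.84), MRPS6 (0.66) and MRPL18 (0.48) differed most. Initiation factors had a median of 0.03 over 34 genes, 17 above and 17 below 0, with EIF3A at -0.62, EIF5B at -0.59 and EIF1 at -0.47. Of the 34 initiation factors, 8 were at least 20% lower and 1 at least 25% higher. Of all genes 19.4% were at least 20% lower and 20.1% at least 25% higher, shares that also stand beside the mitochondrial counts. The median of the initiation factors was -0.037 among those with a mean FPKM of at least 5.

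Elongation and release factors had a median of 0.0033 over 10 genes, 5 above and 5 below 0, but their most abundant members were lower. EEF1A1, which brings aminoacyl-tRNA to the ribosome, stood at 1375 FPKM in JNJ-7706621 and 1896 FPKM in DMSO, a ratio of 0.725 (0.721 to 0.730). EEF2, the translocation factor, stood at 512 FPKM in JNJ-7706621 and 628 FPKM in DMSO, a ratio of 0.816. EEF1A2, the copy of EEF1A1 known from nerve and muscle, was the 1 factor at least 2-fold higher, at 48.0 FPKM in JNJ-7706621 and 15.9 FPKM in DMSO, a ratio of 3.02 (2.86 to 3.19).

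Other mRNAs known to carry a TOP motif, a list that shares members with those above, had a median of -0.04 over 18 genes, 7 above and 11 below 0. HNRNPA1, a splicing factor, stood at 99.0 FPKM in JNJ-7706621 and 152 FPKM in DMSO, and TPT1, a growth-related protein, at 336 FPKM in JNJ-7706621 and 417 FPKM in DMSO. VIM, the filament protein vimentin, stood higher, at 31.6 FPKM in JNJ-7706621 and 20.4 FPKM in DMSO. Among regulators of these mRNAs (9 genes, 3 above and 6 below 0), LARP1 had a ratio of 0.972 (0.944 to 1.00) and MYC, which promotes ribosome synthesis, 1.22 (1.15 to 1.29). The mTOR targets AKT1S1, EIF4EBP1 and EIF4EBP2 had log2 differences of -0.46, -0.39 and 0.31.

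Chaperones that escort single ribosomal proteins into the particle lay above 0 in 9 of 10 genes, with a median of 0.16, against 49.6% of all genes above 0. This list was chosen with earlier results of these data known. The counting intervals of AAMP, RRS1, HEATR3 and TSR2 held a ratio of 1. PDCD2L stood at 10.03 FPKM in JNJ-7706621 and 6.59 FPKM in DMSO, LTV1 at 13.2 FPKM in JNJ-7706621 and 8.86 FPKM in DMSO, and RPF2 at 10.504 FPKM in JNJ-7706621 and 8.21 FPKM in DMSO. PDCD2L shares 34.2% and LTV1 34.8% of its exon length with exons of neighbouring genes.

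**Figure D5:**
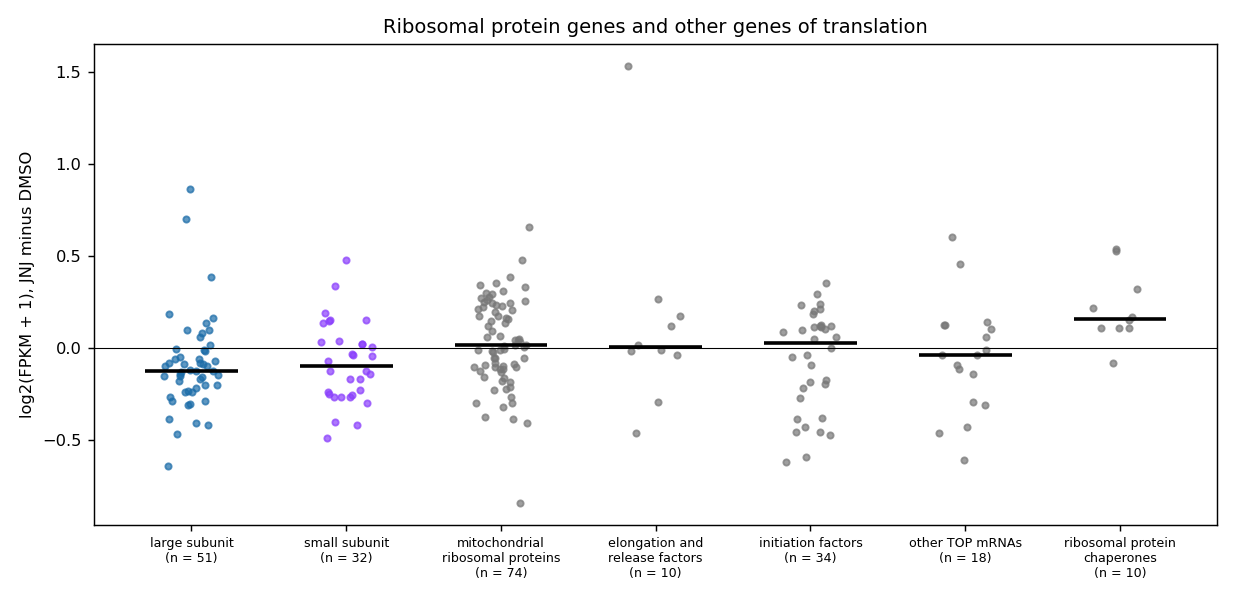
Difference in log2(FPKM + 1), JNJ-7706621 minus DMSO, of genes of the large and small subunit and of 5 other lists of translation genes (mean FPKM 1 or more), each point a gene and each bar the median. Medians of both subunits lie below 0 at -0.12 and -0.10, while those of mitochondrial ribosomal proteins, initiation factors and elongation factors lie near 0.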

How the data were processed

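Gene-level FPKM values are as the authors deposited them. The genome build hg38 comes from the submitters' processing notes, and how reads were aligned and counted, and whether strand was used, is not stated there. The deposited table has 2 value columns whose names match the samples' labels, and 2 others, named as a second library of each group, match no sample record used here and were not analysed. Members and lists were chosen with earlier results of these data known.

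Each FPKM, multiplied by exon length and depth, has to come out as a whole number of reads, which gave the library totals of 22817719 for JNJ-7706621 and 23377161 for DMSO with GENCODE 29 exon lengths for 17325 genes. For 10480 others the length nearest to the annotated one, within 0.25 to 4 times, gave whole reads in both libraries within 0.0001. Recovered reads made up 99.7% of each total.

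The pseudocount was 1 and genes needed a mean FPKM of 1, so small values show understated differences. Counting intervals are exact Clopper-Pearson intervals conditional on the summed reads, and the limit for a count of 0 is 3 reads. Without molecular identifiers, reads are not separate molecules. The calculations were run on simulated libraries made with the annotated exon lengths, so the inference of other lengths was not tested. Genes named are the 10 highest and 10 lowest members by log2 difference, the 5 most abundant, L copies with their parents, fixed genes of the stalk, 5S particle and small subunit, and 3 genes per other list; others were named after their values were seen. A few genes that this rule names are not reported here, though totals and counts over the members hold them. Python 3.11.15, scipy 1.17.1 and Biopython 1.88 were used.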

Additional observations from a re-analysis of the deposited data

How the results depend on the processing

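No paired analysis was possible because 1 library per group was used here; the columns named as second libraries match no sample record used here. The members' median log2 difference kept its sign under every alternative run, between -0.15 and -0.12, and the count of members above 0 stayed between 18 and 23. The count of 18 is over the 77 members left without L copies. Counts of members 2-fold higher or lower stayed at 0. After removal of a trend with exon length and GC content over all genes, 13 members were at least 20% lower (8 without it). The share of all genes at least 20% lower after that removal is not given. With the trend removed, the medians of elongation factors and other TOP mRNAs were 0.059 and -0.082. Without L copies 1 member was at least 25% higher, against 5 with them, which follows from the copies among those 5. With a mean FPKM of at least 5, initiation factors had a median of -0.037, against 0.03 in the report. Rescaled to a sum of 1000000, the summed ratio was 0.887. Library totals without mitochondrial reads, an alternative added after the data were seen, gave 0.898. With the trend removed the log2 differences of RPL26, RPL39, RPS26, FAU and EIF4EBP1 moved by over 1.5 times without a change of sign, to -0.093, 0.080, 0.095, -0.095 and -0.25. Those of RPL11, RPL12, RPL3 and RPSA, given above, did so too, and that of RPL5 changed sign, to 0.078. With a pseudocount of 0.1 that of RPS10 was 0.78, against 0.48. Of 57 named genes, 23 moved beyond their counting error when the trend was removed and 5 when rescaled. The cause was not tested. With 1 library per group in use, the spread between cultures is not known.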
